A study of Sus scrofa with 4 samples.

Results

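Whole testis of the pig (Sus scrofa) at 60 days of age was compared with whole testis at 30 days, as the summed transcripts of all cells and within 4 groups of cells. Each age is a single 10x Genomics 3′ library of testis cells in suspension, so there was no replicate, no test was run, and age and library cannot be told apart. No treatment, genotype or breed is given for either library, and how many animals entered each is not given in the sources used here. A barcode, which tags the transcripts of 1 droplet, was kept when it had 1000 or more unique molecular identifiers (UMIs, 1 for each captured transcript), 500 or more genes detected, and no more than 15% of its UMIs on the 13 genes of the mitochondrial genome. The filters left 17285 of 19373 barcodes at 30 days and 11991 of 16839 at 60 days, 29276 of the 55798 kept in all 4 libraries of the series, which also holds 7 and 90 days. The labels speak of 86453 captured cells, against 69602 barcodes in the deposited files of the 4 ages.

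The testis at these ages is a growing, prepubertal organ. Sertoli cells line the seminiferous cords and support the germ cells, Leydig cells between the cords make androgens and the hormone INSL3, and fibroblast-like stromal cells, vessels, macrophages and lymphocytes fill the interstitium. A pair of programs that come up below can be switched on in almost any cell. Immediate early genes encode transcription factors and feedback proteins that are transcribed within minutes of a stimulus, the handling of tissue among them. Interferon response genes encode antiviral proteins induced when interferon reaches its receptor.

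The libraries differed in depth before any gene was compared. The kept barcodes held 75981051 counts at 30 days and 41231665 at 60 days, with a median of 3071 and 2331 UMIs per barcode. Kept barcodes with under 2000 UMIs, called shallow here, made up 21.6% of the kept barcodes at 30 days and 42.9% at 60 days, and barcodes with fewer than 1000 UMIs made up 9.0% and 26.7% of the deposited ones. The median mitochondrial share was 4.14% and 3.23%, and the doublet caller Scrublet marked 10.3% and 28.8% of the kept barcodes. There were 72 barcode sequences in both libraries, 0.417% and 0.6% of those kept.

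Cells were sorted into gates by marker genes. A barcode entered the gate of a class when at least 2 different markers of the class had a UMI and no other class had as many. The Sertoli gate held 34.8% of the barcodes at 30 days (exact 95% interval 34.1 to 35.5%, 6009 barcodes) and 32.9% at 60 days (32.1 to 33.8%, 3946). The stromal gate, marked by PDGFRA, DCN and collagen genes, held 37.9% (37.2 to 38.6%, 6549) and 45.6% (44.7 to 46.5%, 5471). The endothelial gate held 687 barcodes, 3.97%, and then 122, 1.02%. The lymphoid gate, marked by T and natural killer cell genes, held 187, 1.08%, and then 210, 1.75%. The Leydig gate held 673 barcodes at 30 days and 64 at 60 days, and the germ gate 826 and 129. These intervals, like all others here, cover counting error only. The minimum of 1000 UMIs acts on all of these shares and left out more barcodes at 60 days.

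The gated shares were not the same in shallow and in deep barcodes, those with at least 2000 UMIs. Among shallow barcodes the Sertoli share was 8.81% at 30 days and 19.8% at 60 days, and the stromal share 65.4% and 55.2%. Among deep barcodes the Sertoli share was 41.9% and 42.7%, and the stromal share 30.3% and 38.4%. The stromal share was therefore lower at 60 days among shallow barcodes and higher among deep ones.

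**Figure D1:**
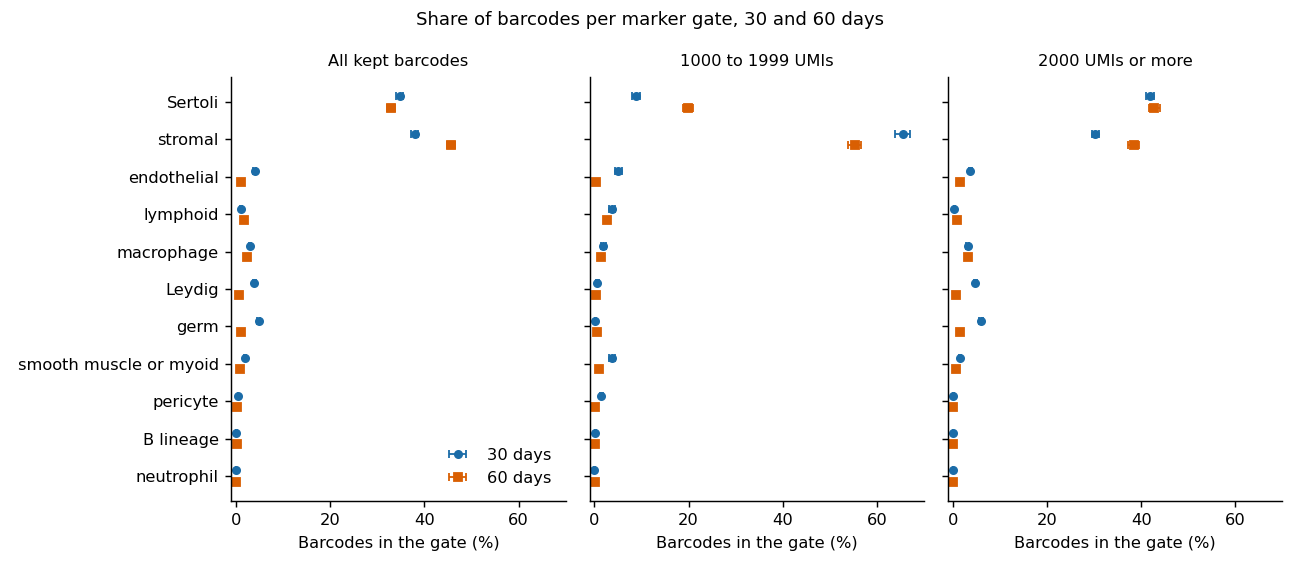
Share of barcodes in each marker gate (x axis, %) at 30 days (circles) and 60 days (squares), with exact 95% intervals, for all kept barcodes, shallow barcodes and deep barcodes. The Leydig, germ and endothelial gates hold less of the 60-day library when all kept barcodes are taken, and the stromal gate moves in opposite directions in the shallow and deep panels.

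For expression, the counts of each set of barcodes were summed and scaled to counts per 1000000 (CPM). A gene was called higher or lower at 60 days when the ratio of its CPM values was at least 1.5 either way, its exact 95% interval excluded 1, and the 2 libraries together held at least 10 counts. These words describe the size of a ratio between 2 libraries, not a tested change. In such sums, fewer cells of a type and less RNA per cell cannot be told apart. In the whole library 24421 genes were measured, 3377 of them (13.8%) were higher at 60 days and 3174 (13%) were lower, with a median log2 ratio of -0.03.

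The 10 genes with the largest ratios in favour of 60 days, in the order of their intervals' lower bounds, include a neutrophil gene, 2 immediate early genes and an interferon response gene, and 6 of the 10 had most of their 60-day counts in the Sertoli gate. S100A12, a calcium-binding protein of neutrophil granules encoded on chromosome 4 at 96225691 to 96227030 of Sscrofa11.1, had 2.67 CPM in the 30-day library and 55.5 CPM in the 60-day library, so that its log2 ratio was 4.38 (4.17 to 4.59). Its counts came from few barcodes. At 60 days 184 barcodes held all 2287 counts and 10 of them held 57.1%, while at 30 days 61 barcodes held 203 counts, 87 of them in 1 barcode. The 5 barcodes gated as neutrophils at 60 days held 829 counts, and at 30 days no barcode entered that gate. HOOK2, an adaptor that links endosomes to microtubules, had 11 and 88.3 CPM, a log2 ratio of 3.01 (2.90 to 3.12), and was spread over 2870 barcodes at 60 days with at most 6 counts in any. HOOK2 lies on chromosome 2 at 66227562 to 66239671, 8126 bases beyond the end of the immediate early gene JUNB, which had 61.0 and 78.2 CPM and was not called.

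KRT8, DEFB119, CA3, NXNL2 and MARCO had most of their 60-day counts in the Sertoli gate, as did KLF4 with 51.6%. KRT8, a keratin of simple epithelia, had 29.7 and 176.6 CPM, a log2 ratio of 2.57 (2.51 to 2.64), and its counts lay in different gates at the 2 ages. At 30 days 1277 of its 2254 counts were in the Leydig gate and 107 in the Sertoli gate, and at 60 days 4618 of 7282 were in the Sertoli gate. DEFB119, a beta-defensin of the male tract, had 26.5 and 131.1 CPM, and CA3, a carbonic anhydrase, 28.6 and 117.9 CPM. NXNL2, a nucleoredoxin-like protein, had 24.4 and 96.8 CPM. These 4 were also called higher in the Sertoli gate itself, by log2 ratios of 6.08, 1.88, 2.27 and 1.75. MARCO, known as a scavenger receptor of macrophages, had 7.98 and 51.1 CPM. Of its counts, 343 of 606 lay in the macrophage gate at 30 days, whereas 1523 of 2107 lay in the Sertoli gate and 11 in the macrophage gate at 60 days. NR4A3 (19.8 and 94.8 CPM) and KLF4 (197.5 and 721.1 CPM), both transcription factors of the immediate early program, and MX1 (38.3 and 142.8 CPM), an interferon-induced GTPase, complete the group.

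Of the 10 genes with the largest ratios in favour of 30 days, 8 had most of their 30-day counts in the Leydig gate. CYP17A1, the enzyme that turns progestins into androgens, had 962.1 CPM in the younger library and 69.0 in the older, for a log2 ratio of -3.80 (-3.86 to -3.75). INSL3, the peptide hormone of Leydig cells, had 3157 and 290.3 CPM, a log2 ratio of -3.44, and STAR, which carries cholesterol into mitochondria, 118.1 and 11.9 CPM. CYP19A1, which converts androgens to oestrogens, had 69.2 and 2.91 CPM. SULT2A1, a sulfotransferase of steroids, had 64.6 and 2.16 CPM, and CBR1, a carbonyl reductase, 158.6 and 6.23 CPM. RDH12, a retinol dehydrogenase, had 124.1 and 5.19 CPM, and DHRS4, a reductase of the same superfamily, 878.9 and 56.6 CPM. For these 8 genes the Leydig gate held between 68.9% (STAR) and 80.2% (CBR1) of the counts at 30 days, when it had 673 barcodes against 64 at 60 days. Within the Leydig gate the level of all 8 was lower at 60 days too, as for INSL3 with 42650 and 12230 CPM. INSL3, CYP17A1, CYP19A1 and STAR are themselves among the markers that define this gate.

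The other two had another origin. SPINK5, a serine protease inhibitor, stood first by its interval, with 126.7 CPM in the younger library and 2.69 CPM in the older, for a log2 ratio of -5.56 (-5.84 to -5.29). Its 30-day counts lay mostly in the Sertoli gate, 7662 of 9628, where its level went from 258.0 to 1.79 CPM. C4BPA, a regulator of complement, had 65.6 and 3.49 CPM, and 4133 of its 4985 counts at 30 days lay in the macrophage gate, where its level was 2123 CPM and then 54.5 CPM.

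Shallow and deep barcodes gave different sizes and, for some genes, different directions. In shallow barcodes 17445 genes were measured, 5284 (30.3%) were higher and 1739 (9.97%) lower, with a median log2 ratio of 0.35. With trimmed-mean (TMM) scaling in place of total counts, the shallow calls were 3442 higher and 3048 lower. In deep barcodes 24138 were measured, 3041 (12.6%) were higher and 3621 (15%) lower, and the median was -0.07. Of the 3377 genes higher in the whole library, 1463 were called higher in both bands and 31 were called lower in the shallow one. Of the 3174 genes lower in the whole library, 473 were called lower in both bands, and 465 were called higher in the shallow one. All 20 named genes kept their direction in both bands. The Leydig-related genes differed less in shallow barcodes, where INSL3 had 529.1 and 274.9 CPM (log2 -0.94), than in deep ones, where it had 3379 and 293.6 CPM (log2 -3.52). S100A12 differed more in shallow barcodes, with 1.35 and 162.2 CPM, than in deep ones, with 2.78 and 33.0 CPM.

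**Figure D2:**
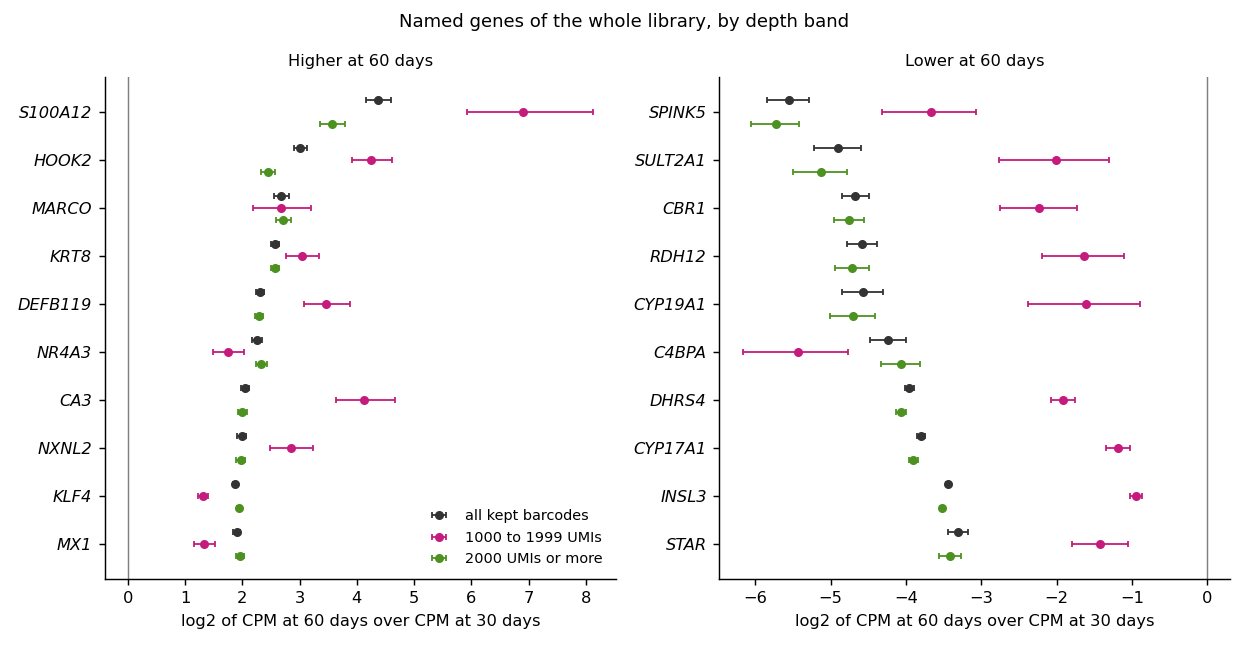
Log2 ratio of CPM at 60 days over CPM at 30 days (x axis) of the 20 named whole-library genes, with exact 95% intervals, for all kept barcodes and for the shallow and deep bands. Every point lies on the same side of 0 within its panel, and 9 of the 10 genes in the right panel have their shallow point nearer to 0.

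The marker genes of other cell classes moved with the bands. Summed over 8 markers, stromal genes had 15890 CPM at 30 days and 6767 at 60 days in shallow barcodes, but 4030 and 5665 in deep ones. Sertoli markers had 1063 and 2545 CPM in shallow barcodes, and 3319 and 3300 in deep ones. The 7 measured germ cell markers had 32.8 and 175.7 CPM in shallow barcodes and 256.7 and 132.1 in deep ones. The 5 measured neutrophil markers had 6.09 and 302.0 CPM in shallow barcodes, and 13.6 and 73.2 in deep ones. Lists of genes tied to these cells differed between the bands as well. For comparison, 30.3% of all genes were higher and 9.97% lower in shallow barcodes, and 12.6% and 15% in deep ones. Collagen and matrix genes were lower in shallow barcodes for 24 of 32 members, with a median log2 ratio of -1.11, whereas in deep barcodes 7 were higher and 1 lower. Meiosis genes, which build the chromosome axes and recombination machinery of spermatocytes, were higher in shallow barcodes for 14 of 18 measured members and lower for none, with a median of 2.75, but in deep ones 3 of 21 were higher and 7 lower. SYCP1, a component of the synaptonemal complex, had 2.71 and 23.6 CPM in shallow barcodes, and SYCP3, another component and one of the germ markers, 4.90 and 33.6 CPM. Cell cycle genes were higher in shallow barcodes for 17 of 26 members and lower for 1, beside 30.3% and 9.97% of all genes there. In deep ones 2 were higher and 6 lower, beside 12.6% and 15% of all genes. Within the stromal gate 20 of 26 cell cycle genes were higher and 1 lower in shallow barcodes, beside 4818 and 1431 of 15421 genes. Deep stromal barcodes had 1 higher and 15 lower, beside 3043 and 974 of 18564 genes. In the Sertoli gate 6 of 25 were higher and 1 lower in shallow barcodes, and 1 each way in deep ones. The endothelial and lymphoid gates had no more than 2 called either way in either band. What part the mix of cells had in these band differences was not tested.

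Within the 4 gates most differences were seen in some gates and not in others. In the Sertoli gate 3393 of 19424 genes (17.5%) were higher and 1228 (6.32%) lower, and in the stromal gate 4454 of 19659 (22.7%) were higher and 897 (4.56%) lower. TMM scaling gave 2838 higher and 1898 lower in the stromal gate. The endothelial gate gave 947 of 12141 (7.8%) higher and 589 (4.85%) lower, and the lymphoid gate 737 of 8078 (9.12%) and 456 (5.64%). The gates differ in depth, with 29693061 and 18963998 counts for the Sertoli gate at 30 and 60 days but 456382 and 545400 for the lymphoid gate, so fewer genes can be called in the smaller gates. Once the markers of the 4 gates were set aside, 7802 genes were measured in every gate. Of these, 92 (1.18%) were higher in all 4 gates and 29 (0.372%) were lower in all 4. With TMM scaling these numbers were 56 and 43. The whole-library comparison called 85 of the 92 and 27 of the 29 in the same direction, and none in the other.

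Of the 92 genes higher in every gate, 68 carry a symbol and 15 are members of the immediate early or interferon list. The 10 named here had the largest ratio in the gate where they differed least. KLF4 had 237.5 CPM at 30 days and 808.6 CPM at 60 days in the Sertoli gate, 255.9 and 759.6 CPM in the stromal gate, 294.8 and 801.8 CPM in the endothelial gate, and 32.9 and 181.5 CPM in the lymphoid gate. Its log2 ratios were 1.77 (1.73 to 1.81), 1.57 (1.52 to 1.62), 1.44 (1.28 to 1.61) and 2.47 (1.67 to 3.36) in that order. KLF4 was thus near one level in the 3 non-lymphoid gates at each age and lower in the lymphoid gate. FOSB, a partner of JUN in the AP-1 factor, had log2 ratios of 1.60, 1.38, 1.20 and 1.96, and its CPM in the Sertoli gate was 737.7 and then 2230.

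IFI6, an interferon-induced protein of the endoplasmic reticulum and mitochondria encoded on chromosome 6 at 84852782 to 84858072, was the interferon gene with the most counts. Its CPM was 3475 and 7424 in the Sertoli gate, 1413 and 3995 in the stromal gate, 1627 and 3794 in the endothelial gate, and 718.7 and 2341 in the lymphoid gate. The Sertoli gate held the highest level at both ages and the lymphoid gate the lowest. HERC5, the ligase that attaches ISG15 to proteins, had log2 ratios of 2.48, 1.86, 1.13 and 1.72 in the Sertoli, stromal, endothelial and lymphoid gates. OAS2, which makes the oligoadenylates that activate RNase L, had ratios of 1.75, 1.81 and 1.08 in the first 3 gates. In the lymphoid gate OAS2 went from 3 to 23 counts, a log2 ratio of 2.68 with an interval of 0.95 to 5.06. ADAR, an RNA-editing enzyme with an interferon-induced form, had ratios between 0.98 and 1.32.

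The remaining genes of the 10, like ADAR, are not members of the immediate early or interferon list. SLC31A1 imports copper and had 12.9 and 47.3 CPM in the Sertoli gate and 11.8 and 41.9 CPM in the stromal gate. NDUFB1, a subunit of respiratory complex I, had log2 ratios of 1.43 to 2.27 over the gates. SLC38A2, a transporter of neutral amino acids, had ratios of 1.15 to 1.85, and PAN3, a subunit of a deadenylase that shortens messenger RNA tails, 1.01 to 1.34. The lymphoid interval of PAN3 ran from 0.20 to 2.48, and that of ADAR from 0.07 to 2.50, so the smallest gate set how closely these sizes are known.

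**Figure D3:**
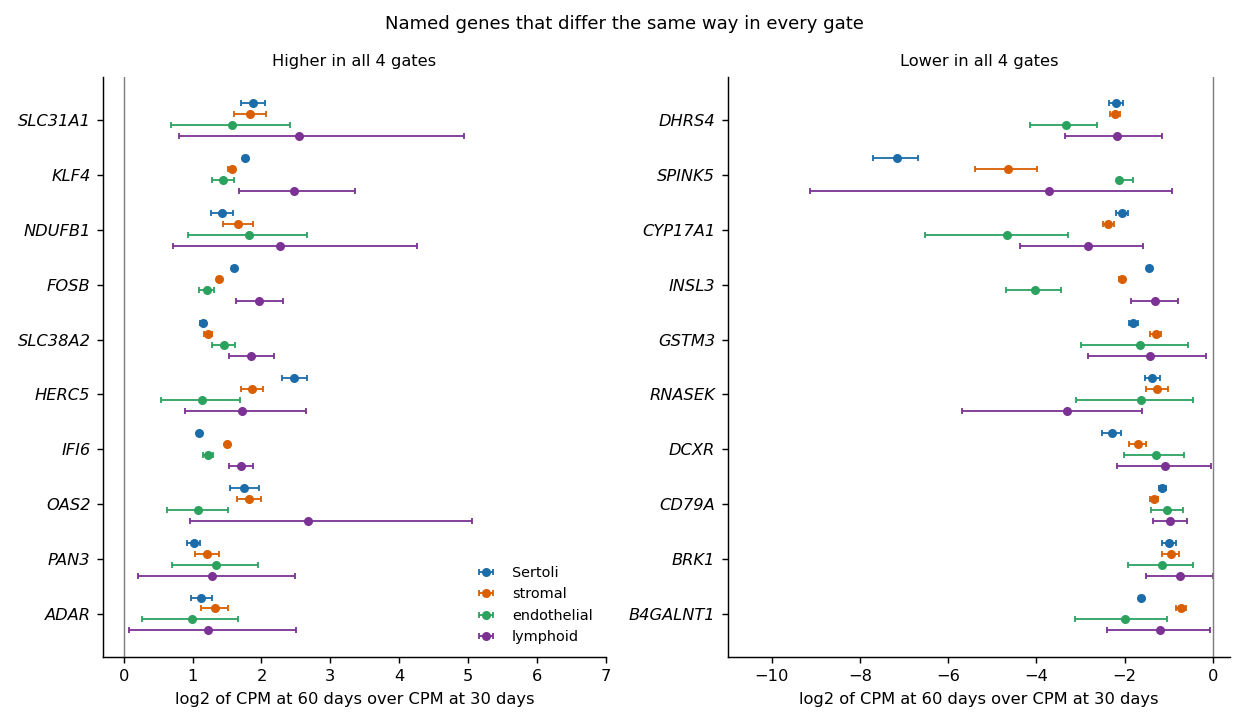
Log2 ratio of CPM at 60 days over 30 days (x axis) in each of the 4 gates, with exact 95% intervals, for the 10 named genes higher in all gates (left) and the 10 lower in all gates (right). Intervals are widest in the lymphoid and endothelial gates, and the endothelial point of SPINK5, with 0 counts at 60 days, is a bound set against 3 counts.

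Of the 29 genes lower in every gate, 24 carry a symbol and 4 are encoded by the mitochondrial genome. Some of the 10 named genes are made mainly by a cell class outside the 4 gates. CYP17A1 had 117.0 CPM at 30 days and 28.2 CPM at 60 days in the Sertoli gate, 233.4 and 45.1 in the stromal gate, 176.7 and 7.00 in the endothelial gate, and 78.9 and 11 in the lymphoid gate. The Leydig gate held 13810 and 5340 CPM of it. INSL3 had 739.8 and 270.0 CPM in the Sertoli gate and log2 ratios between -4.04 and -1.32 over the gates. In deep barcodes alone its lymphoid ratio was -0.13, which ends its call as lower in all gates. DHRS4 had ratios between -3.34 and -2.18. The 6 measured Leydig markers together went from 920.1 to 329.8 CPM in the Sertoli gate, 1165 to 275.9 in the stromal gate, 944.4 to 56.0 in the endothelial gate and 341.8 to 110.0 in the lymphoid gate, beside 4503 and 410.1 CPM in the whole library. When 10% of each gate's counts were subtracted in the proportions of its whole library, as a fixed allowance for free RNA, 15 genes in place of 29 were lower in all gates. The true amount of free RNA was not measured. A barcode with as many Leydig markers as gate markers was left out of a gate, so CYP17A1 and INSL3, and CD79A as a B lineage marker, also took part in the gating.

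The remaining genes of the group have other roles. SPINK5 was lower in the Sertoli gate by a log2 ratio of -7.17 and in the stromal gate, with 36.4 and 1.45 CPM, by -4.65. It had 74 counts at 30 days and 0 at 60 days in the endothelial gate, for a log2 ratio of -2.13 or lower against a floor of 3 counts. In the lymphoid gate it had 11 and 1 counts, with a log2 ratio of -3.72 (-9.14 to -0.93). GSTM3, a glutathione transferase, had ratios between -1.80 and -1.30, but with the barcodes that Scrublet marked left out its ratio in the gate of least difference was -0.15 and it was no longer lower in all gates. DCXR, a reductase of dicarbonyls and xylulose, had ratios between -2.30 and -1.08. RNASEK, a protein tied to the vacuolar proton pump, had 46.1 and 17.8 CPM in the Sertoli gate, and BRK1, a subunit of the actin-regulating WAVE complex, 47.3 and 23.7 CPM. B4GALNT1, which synthesizes gangliosides, had 509.3 and 165.4 CPM in the Sertoli gate and between 46.0 and 106.7 CPM in the other gates at 30 days. Its ratio in the gate of least difference went from -0.73 to -0.29 without the Scrublet calls, under the fold required. Without those calls 18 genes were lower in all gates, 16 of them among the 29.

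CD79A, known as a chain of the B cell receptor, had counts in every gate. Its CPM at 30 days was 196.2 in the Sertoli gate, 241.6 in the stromal, 255.3 in the endothelial and 341.8 in the lymphoid gate, and at 60 days 88.7, 95.4, 124.3 and 174.2. The library as a whole held 9040 barcodes with a CD79A count at 30 days, while only 12 barcodes entered the B lineage gate. CD79A lies on chromosome 6 at 49996116 to 49999294, 673 bases from ARHGEF1 and 3903 bases from the ribosomal protein gene RPS19. How reads of these neighbours were divided was not tested.

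The full rule was also applied to each depth band apart. Deep barcodes gave 65 genes higher in all 4 gates, 56 of them among the 92, and 19 lower, 17 of them among the 29. Shallow barcodes gave 11 higher, all among the 92, and 7 lower, 4 of them among the 29. Deep barcodes hold most of the counts on which the 92 and 29 were chosen, so their agreement is partly fixed by that choice. In the shallow endothelial gate, with 188 barcodes at 30 days and 23 at 60 days, 58 of the 92 and 23 of the 29 could be measured. In shallow stromal barcodes 3 of the 29 were called higher at 60 days. A count of 9 genes were higher in all gates in both bands apart, and 8 of them carry a symbol: FOSB, HERC5, HTT, IFI6, KLF4, PPP1R10, RPL38 and RPS28. HTT and PPP1R10 were singled out after their values were seen. For the lower genes, ND4 and ND4L passed in both bands.

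Immediate early genes were mostly higher at 60 days. Of 32 measured members of the list, 21 were higher in the whole library and none lower, with a median log2 ratio of 1.0 beside -0.03 over all genes. The same 32 gave 18 higher and 3 lower among shallow barcodes (16 and 5 with TMM scaling) and 22 and 0 among deep ones. Over all genes 13.8% were higher and 13% lower in the whole library. In shallow barcodes these shares were 30.3% and 9.97%, and in deep ones 12.6% and 15%. Among the transcription factors, EGR1 had 966.0 CPM at 30 days and 2473 at 60 days, and NR4A1 158.0 and 563.3. HOMER1, a synaptic scaffold with an early induced short form, had 134.8 and 416.5 CPM. ZFP36, which destabilizes cytokine messenger RNA, had 278.7 and 623.7 CPM. The members with the most counts differed little, with 3371 and 3544 CPM for JUN and 4596 and 6114 CPM for FOS. By gate, 23 of 32 members were higher and none lower in the Sertoli gate, 19 of 32 higher and 1 lower in the stromal gate, 9 of 31 and 1 in the endothelial gate, and 18 of 28 and 0 in the lymphoid gate. The shares over all genes, in the same order, were 17.5% and 6.32%, 22.7% and 4.56%, 7.8% and 4.85%, and 9.12% and 5.64%. Of 28 members measured in all 4 gates, 8 were higher in all 4: KLF4, FOSB, HOMER1, EGR1, NR4A2, DUSP2, CCN1 and NR4A1. Over all genes that share was 1.18%. NR4A2 had its largest log2 ratio, 3.52, in the Sertoli gate, and EGR1 its largest, 2.59, in the lymphoid gate, where it had 87.7 and 528.0 CPM. Scrublet marked 4.13% of Sertoli barcodes at 30 days and 19.2% at 60 days, 12.8% and 35.6% of stromal, and 10.6% and 13.9% of endothelial ones. With these left out, 21 of 32 members were again higher in the whole library, and 74 genes, 66 of them among the 92, were higher in all 4 gates.

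Interferon response genes were higher as well. Of 24 measured members, 19 were higher in the whole library and none lower, beside 13.8% and 13% of all genes. The median log2 ratio was 1.17. Shallow barcodes gave 15 higher and 2 lower (8 and 4 with TMM scaling), and deep ones 19 and 0. Over all genes 30.3% were higher and 9.97% lower in shallow barcodes, and 12.6% and 15% in deep ones. The effectors MX1, OAS2 and IFI6 are described above. ISG15, the small modifier that HERC5 attaches, had 61.9 and 188.6 CPM in the whole library. In the gates ISG15 had 23.5 and 116.4 CPM in Sertoli, 81.2 and 272.8 in stromal, 450.7 and 456.9 in endothelial and 335.2 and 694.9 in lymphoid barcodes, so the endothelial gate alone of the 4 showed no difference beyond counting error (log2 0.02, -0.18 to 0.21). EIF2AK2, the kinase that halts translation on double-stranded RNA, had 82.1 and 176.6 CPM. Among the regulators, IRF9 was higher (3.59 and 8.15 CPM), and IRF7 (13.3 and 18.6 CPM) was not called. By gate, 20 of 24 members were higher in the Sertoli gate, 20 of 24 in the stromal, 12 of 23 in the endothelial and 14 of 22 in the lymphoid gate, and 1 was lower, in the endothelial gate. The shares of all genes higher in these gates were 17.5%, 22.7%, 7.8% and 9.12%. With TMM scaling the stromal count was 17. Of 21 members measured in all gates, 7 were higher in all 4: MX1, IFI6, IFI44L, OAS2, HERC5, HERC6 and RSAD2. For all genes measured in every gate that share was 1.18%. The genes that encode interferons themselves were not in this list.

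**Figure D4:**
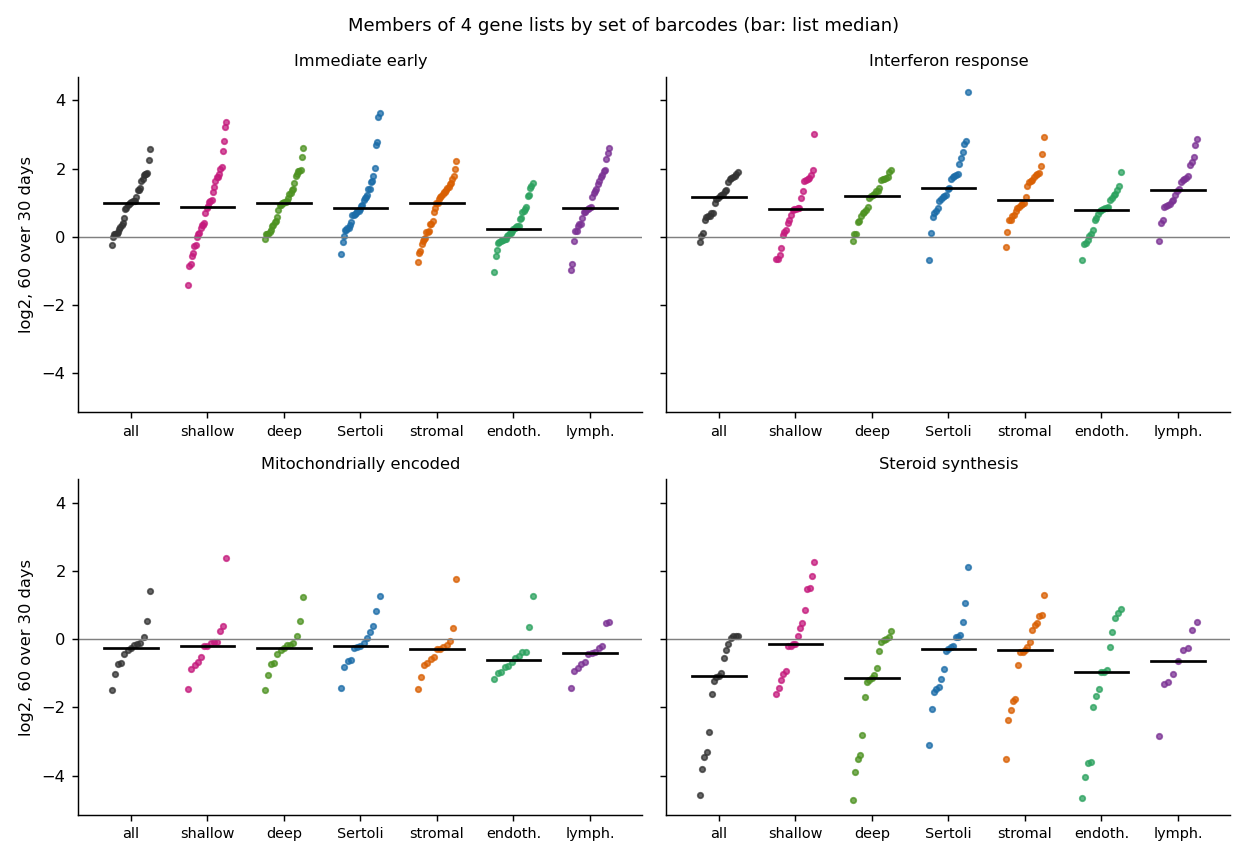
Log2 ratio of CPM at 60 days over 30 days (y axis) of each measured member of 4 gene lists (points) in all kept barcodes, the shallow and deep bands and the 4 gates, with black bars at the list medians. The immediate early and interferon medians lie above 0 in all 7 sets and the mitochondrial and steroid medians below 0.

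Genes of neighbouring immune programs differed less evenly. Of 14 antigen presentation genes, 7 were higher and 1 lower in the whole library. In the Sertoli gate 12 were higher and 1 lower, and in the lymphoid gate 2 of 13 were higher and 4 lower. TAP2, a subunit of the peptide transporter, was higher in all 4 gates. Over all genes 13.8% were higher and 13% lower in the whole library. These shares were 17.5% and 6.32% in the Sertoli gate, and 9.12% and 5.64% in the lymphoid gate. The class II genes SLA-DRA and SLA-DQB1 had stromal CPM of 89.0 and 210.2 and of 110.1 and 248.1, while in the lymphoid gate their log2 ratios were -0.90 and -0.64. Of 23 cytokine, SOCS and NF-kB feedback genes, 12 were higher and 2 lower in the whole library, and none of the 16 measured in every gate was higher in all 4. For all genes measured in every gate that last share was 1.18%. CCL2, a chemokine for monocytes, had 109.1 and 275.2 CPM in the whole library and 31.6 and 214.4 CPM in the Sertoli gate. CEBPD, a transcription factor of the acute phase, was lower, with 67.7 and 18.8 CPM. Among 20 lymphocyte effector genes, which mark cytotoxic and migrating lymphocytes, 12 were higher and 3 lower in the whole library. In the lymphoid gate itself 3 of 19 were higher and 5 lower, and CCL5, a chemokine of T cells, had 3749 and 6063 CPM. The 8 lymphoid gate markers had 53.5 and 107.2 CPM in the whole library, 11.8 and 24.5 in the Sertoli gate and 22.1 and 74.5 in the stromal gate. The part that more lymphoid RNA in the mix had in these counts was not tested.

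Genes of the mitochondrial genome were lower in part. The median log2 ratio of the 13 genes was -0.26, and 4 were lower and 1 higher in the whole library, beside 13% and 13.8% of all genes. ND4L had 207.6 and 74.2 CPM (log2 -1.48), ND5 691.1 and 338.1 (-1.03), CYTB 5691 and 3421 (-0.73) and ND4 3803 and 2333 (-0.70), and these 4 were lower in all 4 gates. The first, second and last encode subunits of complex I and CYTB a subunit of complex III. COX1, COX2 and COX3 of complex IV had log2 ratios of -0.15, -0.31 and -0.26 and were not called. ND6, the 1 protein gene on the other strand of this genome, was higher, with 124.4 and 327.3 CPM. The 15% limit on mitochondrial UMIs bears on these levels. Of 32 nuclear genes of oxidative phosphorylation, 2 (6.25%) were higher in the whole library, beside 13.8% of all genes, and 5 (15.6%) lower, beside 13%. The higher ones were COX7C (305.4 and 581.1 CPM) and NDUFB1, and ATP5MC3 was among the lower with 230.2 and 119.2 CPM. COX7C and NDUFB1 were also higher, and ATP5MC3 lower, in every gate.

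Most ribosomal protein genes did not differ. Of 53, 4 were higher and none lower in the whole library, with a median log2 ratio of -0.07: RPL38 (380.8 and 1030 CPM), RPS28 (629.6 and 1476), RPS29 (2133 and 3440) and RPS21 (880.4 and 1330). RPL38 and RPS28 were higher in all 4 gates, with RPL38 ratios of 1.42, 1.38, 1.56 and 1.23 in Sertoli, stromal, endothelial and lymphoid barcodes. In shallow barcodes 9 ribosomal protein genes were lower and 4 higher, and TMM scaling made these 21 and 2. In the stromal gate 8 were lower and 2 higher, and TMM scaling made these 22 and 2. Over all genes, without TMM scaling, 9.97% were lower and 30.3% higher in shallow barcodes, and 4.56% and 22.7% in the stromal gate. None of 29 proteasome genes was called in the whole library either way, where 13.8% of all genes were higher and 13% lower.

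Steroid synthesis genes were lower in the whole library for 10 of 17 members and higher for none, with a median log2 ratio of -1.09. Over all genes 13% were lower and 13.8% higher there. Beside the genes above, CYP11A1, which cuts the side chain of cholesterol, had 175.8 and 26.4 CPM, and FDX1, the ferredoxin that feeds it electrons, 274.4 and 89.8 CPM. HSD17B3, the enzyme of the last step to testosterone, had 358.0 and 383.7 CPM and was not called, and neither was NR5A1, a master regulator of gonadal genes, with 25.7 and 23.3 CPM. In shallow barcodes 5 of the 17 were lower and 3 higher, beside 9.97% and 30.3% of all genes. The 25 genes of the cholesterol list, for its synthesis and uptake, gave 8 lower and 1 higher in the whole library, with IDI1 at 132.4 and 58.6 CPM, and in shallow barcodes 8 of 24 higher and none lower (5 and 1 with TMM scaling), a share near the 30.3% of all genes there. Of 24 antioxidant and metallothionein genes, 7 were lower and 1 higher, GPX3 with 35.6 and 9.10 CPM and NQO1 with 58.9 and 16.7 CPM among the lower ones.

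The germ cell lists were counted in the whole library as well. Of 21 meiosis genes 4 were higher and 4 lower, where the shares over all genes were 13.8% and 13%. Of 15 spermatogonia genes 8 were lower and none higher, with a median log2 ratio of -0.65, TKTL1 with 73.7 and 33.6 CPM among them. In shallow barcodes 8 of 14 were higher and none lower, beside 30.3% and 9.97% of all genes there, with a median of 1.74. The germ gate held 4 of its 826 barcodes in the shallow band at 30 days and 24 of its 129 at 60 days. Of 20 genes of immature Sertoli cells, 6 were higher in the whole library and 2 lower. SOX9, itself a Sertoli gate marker, was among the higher ones with 155.0 and 274.8 CPM. The 8 Sertoli gate markers together had 3144 and 3168 CPM in the whole library, and 6484 and 5001 CPM in the Sertoli gate. In the Sertoli gate 3 of 19 were higher and 3 lower, where the shares over all genes were 17.5% and 6.32%. The 17 endothelial activation genes gave 3 higher and 8 lower in the whole library, and 2 higher and 3 lower in the endothelial gate. Of all genes in that gate, 7.8% were higher and 4.85% lower. In the endothelial gate VWF, which is one of its markers, had a log2 ratio of -0.24.

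Collagen and matrix genes showed how the answer depended on the set of barcodes. In the Sertoli gate 17 of 32 were higher, in the stromal gate 2 were higher and 6 lower, and in the lymphoid gate 12 of 20 were higher. Over all genes 17.5% were higher in the Sertoli gate and 9.12% in the lymphoid gate. In the stromal gate 22.7% of all genes were higher and 4.56% lower. The stromal markers summed to 241.0 CPM in the lymphoid gate at 30 days and to 1408 at 60 days, to 589.8 and 687.2 CPM in the Sertoli gate, and to 17080 and 15890 CPM in the stromal gate. What part stromal RNA or mixed droplets had in the lymphoid values was not tested. Of the lymphoid barcodes, Scrublet marked 2.14% at 30 days and 8.10% at 60 days.

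The libraries of 7 and 90 days, 1 each, were set beside the 2 ages. FOSB had 911.0 CPM at 7 days and 508.0 at 90 days, and KLF4 231.8 and 184.1, all below their 60-day levels. IFI6 had 2256 CPM at 7 days and 721.9 at 90 days, again below 5510 at 60 days. HERC5 was at 36.0 CPM at 7 days and went on to 235.7 at 90 days. Of its counts, 1915 of 3516 lay in the germ gate at 30 days and 514 of 3774 at 60 days. Its level in the germ gate was 196.7 and 348.2 CPM, above that in each of the 4 gates compared. INSL3 had 3140 CPM at 7 days and 511.0 at 90 days, and ND4L 177.0 and 142.2, so that for both the 60-day level was the lowest of the 4. DEFB119 was at 1.77 CPM at 7 days and 556.0 at 90 days, and MARCO and NXNL2 were at 1.36 and 0.97 CPM at 90 days.

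**Figure D5:**
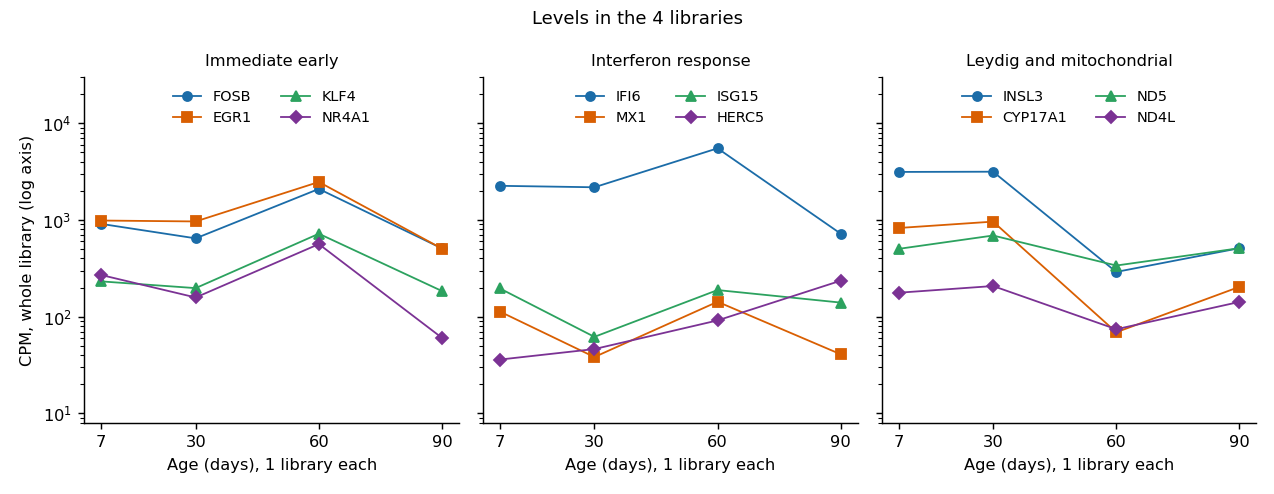
Whole-library CPM (y axis, log scale) of 12 genes in the libraries of 7, 30, 60 and 90 days (x axis), 1 library each, with lines only to guide the eye. The 4 immediate early genes and IFI6 are highest at 60 days, and INSL3, CYP17A1, ND5 and ND4L are lowest there.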

How the data were processed

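Testis cells of 4 ages were captured with 10x Genomics 3′ version 3 chemistry, per the labels' protocols. The authors deposited raw counts of UMIs per gene and barcode. Cell Ranger 5.0.1 wrote them, per the file headers, and bcl2fastq, Scanpy 1.7.1 and build Sscrofa11.1 are listed besides in the submitters' processing notes. The gene annotation is not given in the sources used here. The files list 31908 features, of which 16508 carry a symbol. Another 825 were given one from a reference table of gene names. Coordinates are RefSeq's for Sscrofa11.1.

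Barcodes were filtered and gated as described above with 12 marker classes of 8 genes, 8 of these 96 markers having no feature. Doublets were kept in the main values. Counts were summed per set of barcodes with Python 3.11.15, NumPy 2.4.6, SciPy 1.17.1 and pandas 2.3.3. Intervals are at 95% and cover counting error only: exact conditional ones for ratios, Clopper-Pearson ones for shares. A side with 0 counts was set to 3. Depth limits the endothelial and lymphoid gates most. The ratio intervals were checked with simulated counts. Alternatives used TMM factors (edgeR 4.0.16, R 4.3.3), which moved log2 ratios by 0.02 in the whole library, -0.31 in shallow barcodes, -0.10 in the Sertoli gate and -0.24 in the stromal gate. Others changed the minimum count, fold, depth band, mitochondrial limit, gate rule and free RNA, or left out the calls of Scrublet in Scanpy 1.11.5 (expected rate 0.8% per 1000 barcodes).

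Named whole-library genes were the 10 largest ratios each way by the interval bound nearest to a ratio of 1, among genes with a symbol that reached 50 CPM in either library. Named genes of the gates were the 10 each way with the largest ratio in the gate where they differed least, among genes that reached 20 CPM in either library within every gate. Mitochondrial and ribosomal genes were kept to their lists. Members of 30 gene lists (111 of 717 genes had no feature) and markers could also be named. The genes, lists and rules were chosen with earlier results of these data known.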

Additional observations from a re-analysis of the deposited data

Results flagged for a closer look

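Some genes of the lists were called in opposite directions in 2 gates of the same 2 libraries. The 8 given here were chosen after their values were seen, and they are not all of them. The difference between the gates was not tested, since each gate has 1 library per age. The log2 ratio of 60 over 30 days was 1.5 in the stromal and -1.20 in the lymphoid gate for CXCL2, a chemokine for neutrophils. It was 1.80 in the lymphoid and -0.74 in the stromal gate for IER3, an immediate early gene, and 2.14 in the Sertoli and -0.68 in the endothelial gate for MX2, an interferon-induced GTPase. For POSTN, a matrix protein, it was 1.49 in the endothelial and -1.72 in the stromal gate. The class II genes were higher in one gate and lower in the lymphoid gate: SLA-DQB1 with 1.17 (stromal) and -0.64, SLA-DRA with 1.24 (stromal) and -0.90, and SLA-DRB1 with 0.75 (Sertoli) and -1.20. SOCS3, a brake on cytokine receptors, had 1.78 in the lymphoid and -0.99 in the endothelial gate.

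Barcodes that the filters left out also carried a signal. Neutrophil markers summed to 208.7 CPM in the left-out barcodes of the 60-day library (936 counts), against 42.3 CPM in those of the 30-day library (85 counts). Erythroid markers there had 2345 CPM at 30 days and 12.5 CPM at 60 days. Leydig markers had 5756 and 387.7 CPM, and macrophage markers 1384 and 216.0 CPM. Endothelial, lymphoid, B lineage and pericyte sums were lower at 60 days as well. Sertoli sums were higher at 60 days, with 1690 and 2335 CPM, as were stromal sums with 4269 and 5826 CPM. Germ sums had 115.8 and 223.6 CPM, and smooth muscle or myoid sums 751.6 and 830 CPM.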

How the results depend on the processing

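Depth bands, the fold and the purity of the gates changed the counts most. Against 3377 genes higher and 3174 lower in the whole library, a fold of at least 2 gave 1843 and 1627, and shallow barcodes alone gave 5284 and 1739. The other planned settings gave 2862 to 3723 higher and 2591 to 3621 lower. Genes higher in all 4 gates numbered 92, and 56 with TMM factors, 46 with at least 50 counts, 26 with a fold of at least 2, 11 in shallow barcodes and 11 in barcodes with no marker of another gated class, where the endothelial gate had 6 barcodes at 60 days and 2120 genes could be measured. Genes lower in all 4 numbered 29, and 15 with at least 50 counts, 9 with a fold of at least 2, 7 in shallow barcodes, 19 in deep ones, 18 without Scrublet calls, 15 after free RNA subtraction and 0 in barcodes with no marker of another gated class. Steroid synthesis genes lower in the whole library numbered 10, and 5 in shallow barcodes. In the gate of least difference the log2 ratio took the other sign for B4GALNT1 (0.42) and RNASEK (1.22) in shallow barcodes, for BRK1 (1.33), CYP17A1 (1.18) and DHRS4 (0.77) in barcodes with no marker of another gated class, and for INSL3 (3.07) after free RNA subtraction, which left the lymphoid gate no INSL3 counts at 30 days. In these ratios too a side with 0 counts was set to 3, which can turn the sign where depth differs between the ages. Whether this or another cause lies behind the other reversals was not tested. Of 120 recomputed values of named whole-library genes, 78 moved by less than their counting interval and 42 by more, all in the same direction. Of 137 values of named genes in the gates, 109 moved by less, 22 by more and 6 changed sign. Of 68 gate shares, 42 moved beyond their interval. No paired analysis was possible because each age has 1 library.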
